A study of Mus musculus with 15 samples.

Results

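The mitochondrial ribosome, or mitoribosome, is built from proteins that are almost all encoded in the nucleus under the names Mrpl (large subunit) and Mrps (small subunit). All protein-coding mouse genes whose symbol starts with Mrpl or Mrps followed by a digit were taken, without use of any measured value. This gave 78 genes of the 55487 in each table, 49 named Mrpl and 29 named Mrps. Another 5 symbols that match are processed pseudogenes and were left out. Of the 78 genes, 77 had enough counts to be tested, and Mrpl53 did not.

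Hearts came from male mice aged 225 days, and RNA was sequenced from a piece of the left ventricular free wall. The 7 kidney disease mice carry a mutation of Col4a5, a type IV collagen gene whose loss damages the filter of the kidney, and by this age have advanced chronic kidney disease. The 8 wild-type mice are littermates that shared their housing and chow. The labels call the mutation a knockdown in the genotype and a knockout in the design text, and they name isoflurane in the titles but ketamine with xylazine in the protocol. The mutation is carried in the whole animal, so effects of kidney disease and of the Col4a5 mutation in the heart itself cannot be told apart. The question was whether the heart differs between the groups.

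The mitoribosome translates the few proteins that the mitochondrial genome encodes, all of them subunits of the respiratory chain or of ATP synthase. Its proteins are made in the cytosol, imported, and assembled onto ribosomal RNAs transcribed from mitochondrial DNA, so the organelle depends on both genomes at once. Heart muscle is rich in mitochondria, and in humans inherited defects of several mitoribosomal proteins, MRPL3 and MRPL44 among them, cause cardiomyopathy. By place in the ribosome, 30 of the genes encode large-subunit proteins with a bacterial homologue and 21 large-subunit proteins found in mitochondria only. A further 16 encode small-subunit proteins with a bacterial homologue and 10 small-subunit proteins of mitochondria only. Names do not always follow place: Mrps30 and Mrps18a encode proteins of the large subunit, and Mrps36 encodes a component of the 2-oxoglutarate dehydrogenase complex and not of the ribosome.

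Library totals ran from 48748379 to 65519279 counts, of which the mitoribosomal protein genes took 120033 to 253523, or 0.2405% to 0.4111%. Col4a5 checked the labels: it had 9.19 to 16.2 scaled CPM (counts relative to the library total, scaled with TMM factors) in kidney disease, against 50.4 to 65.7 in wild type, a log2 fold change of -2.08 (SE 0.11; edgeR, adjusted p = 3.0e-09). Ventricular markers were abundant in every library, with summed levels of 66441 to 74588 scaled CPM in kidney disease, against 66927 to 88813 in wild type. Macrophage markers were higher in kidney disease, with 8 of 10 past the threshold (edgeR, adjusted p under 0.05), which 1.28% of all genes tested passed. Their summed levels were 423.7 to 598.4 scaled CPM in kidney disease against 309.1 to 369.9 in wild type. B cell markers passed in 5 of 6, with median sums of 20.2 in kidney disease against 10.75 in wild type, and fibroblast markers in 4 of 8, with sums of 856.1 to 1011 in kidney disease against 755.2 to 914.2 in wild type. No endothelial (0 of 6), erythroid (0 of 5), adipocyte (0 of 4), atrial (0 of 5) or ventricular (0 of 8) marker passed. At an unadjusted p under 0.05 (edgeR), 2, 5, 1, 0 and 3 of them passed in that order, against 12.4% of all genes. All 5 erythroid fold changes were negative, with a median of -0.56. Summed erythroid levels were 310.2 to 821.3 scaled CPM in kidney disease against 558.1 to 1073 in wild type, atrial ones 31.7 to 1690 in kidney disease against 34.4 to 1401 in wild type, and endothelial ones 1159 to 1311 in kidney disease against 1009 to 1191 in wild type. Adipocyte markers summed to 0.3 to 24.9 in kidney disease against 3.1 to 48.1 in wild type, and Lep, the 1 marker with 0 counts in some library, could not be tested. The part of these cell types in the values below was not tested, and in bulk tissue fewer cells of a type and less RNA per cell cannot be told apart.

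The mitoribosomal protein genes did not separate the hearts of mice with kidney disease from those of wild-type mice. None of the 77 passed the test (edgeR quasi-likelihood test, Benjamini-Hochberg adjusted p under 0.05 over all 20718 genes), against 168 genes higher and 98 lower in the whole table, which is 1.28% of all genes tested. At an unadjusted p under 0.05, 1 of the 77 passed, against 12.4% of all genes. DESeq2 also called 0 of them (3.68% of all genes it tested), and limma-voom called 0 (1.22%). For no mitoribosomal gene did the 7 kidney disease libraries lie wholly above or wholly below the 8 wild-type libraries, which was the case for 0.565% of all genes.

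The fold changes were small as well as uncalled. Their median was 0.03 on the log2 scale, kidney disease minus wild type, with a range of -0.15 to 0.18, and 49 were positive and 28 negative. Over all genes tested the median was 0.00. The median SE was 0.10, and every one of the 77 95% intervals lay within 0.5 of zero, with the lowest bound at -0.36 and the highest at 0.43. For 51 genes the interval lay within 0.3 of zero.

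**Figure D1:**
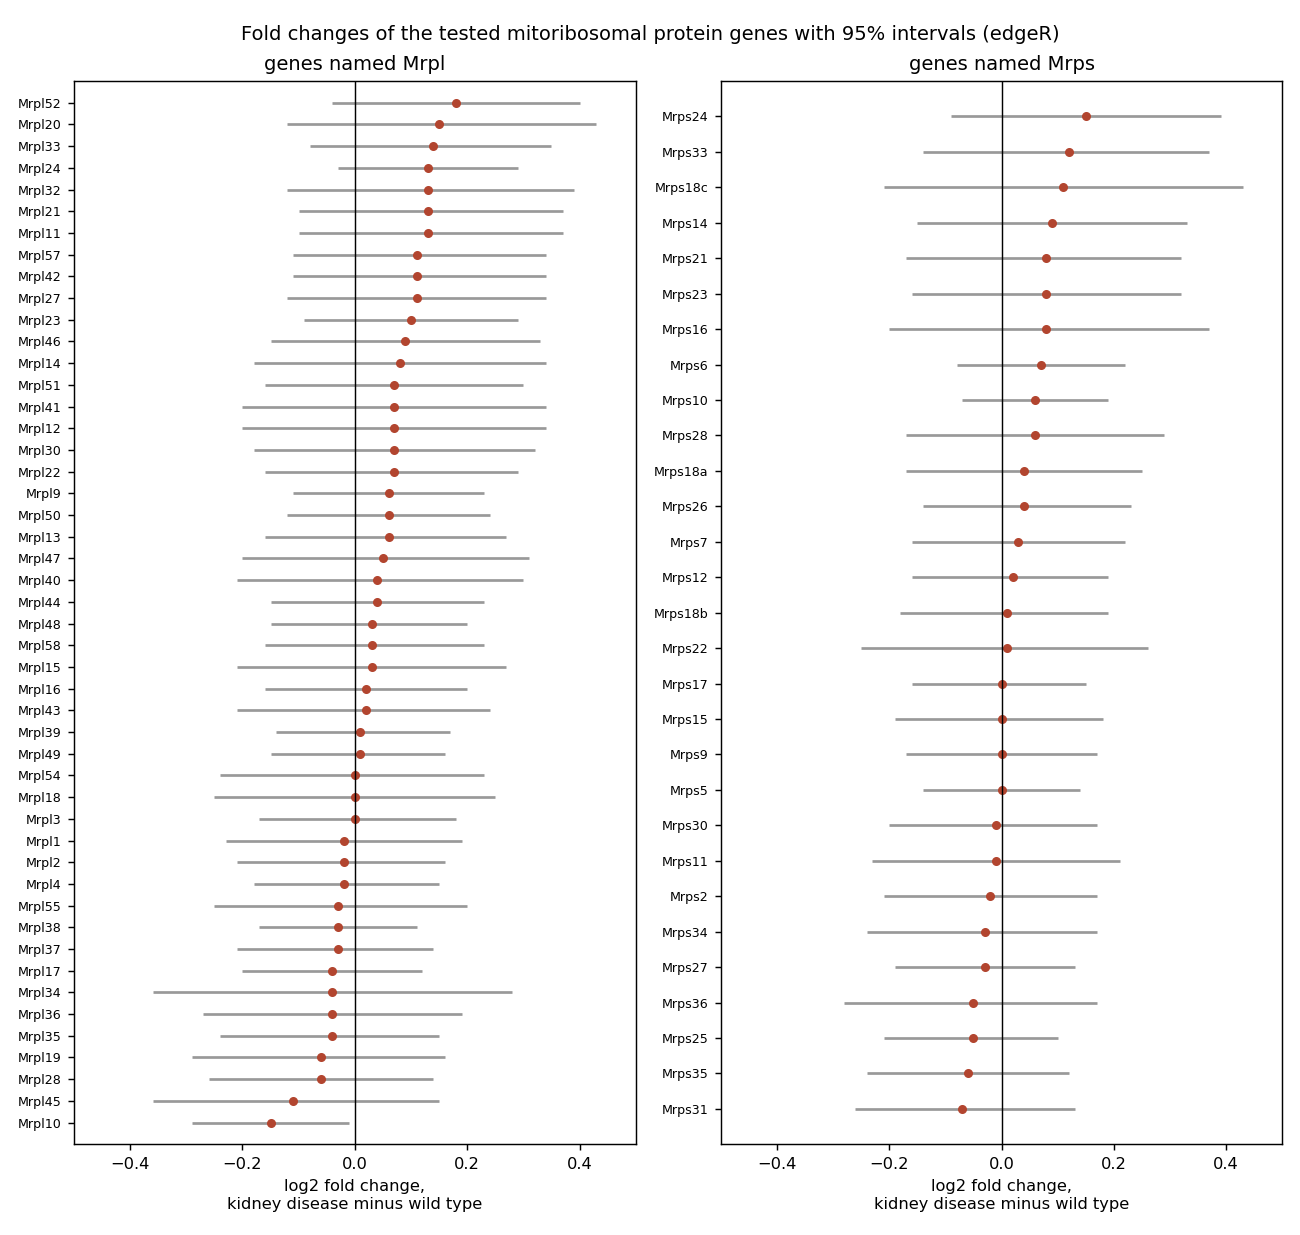
Fitted log2 fold change (kidney disease minus wild type, x axis) of each of the 77 tested mitoribosomal protein genes, Mrpl genes on the left and Mrps genes on the right, sorted by value. Points are estimates and bars 95% intervals from edgeR with 7 and 8 animals, and only the bar of Mrpl10, at -0.15, lies wholly to one side of zero.

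The median was close to zero in each part of the ribosome. The median log2 fold change was 0.04 over 30 large-subunit genes with a bacterial homologue, 0.04 over 20 tested large-subunit genes of mitochondria only, 0.04 over 16 small-subunit genes with a bacterial homologue and -0.01 over 10 small-subunit genes of mitochondria only. Mrps36, the gene outside the ribosome, had 18.2, 21.5 and 31.1 scaled CPM (lowest, median and highest library) in kidney disease and 16.9, 23.8 and 27.0 in wild type, a log2 fold change of -0.05 (SE 0.11). The summed level of Mrps genes stood at 0.462 to 0.480 of that of Mrpl genes in kidney disease, against 0.466 to 0.481 in wild type. The balance between transcripts named Mrps and those named Mrpl was thus nearly the same in every heart. It is not exactly that of the small to the large subunit, since Mrps30, Mrps18a and Mrps36 count by name.

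The stalk of the large subunit, which recruits the translation factors, is built on Mrpl10 and Mrpl11 and carries copies of Mrpl12. Mrpl10 (chromosome 11, 97041560 to 97049213, GRCm38) had the smallest p of all 77. It had 31.1, 35.2 and 38.1 scaled CPM (lowest, median, highest) in kidney disease and 31.2, 39.1 and 42.6 in wild type. The groups overlapped, but each of the 7 kidney disease libraries lay below the wild-type mean of 38.5. Its log2 fold change was -0.15 (SE 0.07; edgeR, adjusted p = 0.37), and it was the 1 gene with an unadjusted p under 0.05. Gm11574, a transcript on the other strand with 0 to 7 counts per library, covers 14.1% of its exon bases. Mrpl11, beside it at the stalk base, had 23.8, 24.4 and 41.2 scaled CPM in kidney disease and 19.9, 24.4 and 29.0 in wild type, with nearly equal medians and a log2 fold change of 0.13 (SE 0.11). Mrpl12, whose product in human cells has also been found with the mitochondrial RNA polymerase, had 119.2, 145.5 and 218.4 in kidney disease and 93.0, 143.8 and 179.4 in wild type (log2 fold change 0.07, SE 0.13). Neighbours in 1 structure thus had fold changes of either sign with all libraries in the fit. Without kidney disease 6 and wild type 7, an omission chosen after seeing the data, each was negative. Mrpl10 then had -0.21, Mrpl11 -0.04 and Mrpl12 -0.11. With all libraries the intervals of Mrpl11 and Mrpl12 included zero while that of Mrpl10, -0.29 to -0.01, did not. Whether these genes differ from each other was not tested.

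Around the catalytic centre and the decoding site the values were close to zero. Mrpl3, which reaches towards the peptidyl transferase centre, had 59.6, 66.3 and 85.0 scaled CPM in kidney disease and 53.8, 67.6 and 76.9 in wild type (log2 fold change 0.00, SE 0.08). Mrps12, the homologue of the bacterial decoding-centre protein in which streptomycin resistance arises, had 27.0, 29.6 and 36.6 in kidney disease and 22.4, 29.4 and 34.2 in wild type (0.02, SE 0.08). The ranges of both genes overlapped over most of their width. Mrpl58, a peptidyl-tRNA hydrolase that became part of the large subunit, had 24.9, 29.6 and 39.0 in kidney disease and 22.9, 29.6 and 32.6 in wild type (0.03, SE 0.09). Mrpl44, related to ribonuclease III, had 30.3, 34.5 and 45.2 in kidney disease and 26.4, 35.6 and 39.5 in wild type (0.04, SE 0.09).

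After Mrpl10, the genes with the smallest p among the negative values were Mrpl45 (-0.11, SE 0.12), Mrps25 (-0.05, SE 0.07), Mrps31 (-0.07, SE 0.09), Mrps35 (-0.06, SE 0.09) and Mrpl28 (-0.06, SE 0.09). Mrpl45 holds the ribosome at the inner membrane, where its products are inserted. It had 35.8, 41.5 and 60.6 scaled CPM in kidney disease and 29.5, 47.2 and 59.5 in wild type, so wild type held the lowest library and the higher median. Among the positive values they were Mrpl52 (0.18, SE 0.10), Mrpl24 (0.13, SE 0.08), Mrpl33 (0.14, SE 0.10), Mrps24 (0.15, SE 0.11), Mrpl11 and Mrpl21 (0.13, SE 0.11). Mrpl52, a large-subunit protein of mitochondria only, had 23.6, 25.4 and 39.2 in kidney disease and 19.8, 24.1 and 29.5 in wild type. Mrpl24, a homologue of a bacterial protein that starts large-subunit assembly, had 20.1, 21.6 and 28.7 in kidney disease and 18.5, 21.6 and 24.6 in wild type, and 26.3% of its exon bases lie in exons of Rrnad1. The smallest adjusted p after that of Mrpl10 was 0.54, that of Mrpl52 (edgeR).

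The 3 copies related to bacterial S18 sit in different places, Mrps18c at the bacterial position, Mrps18b elsewhere in the small subunit and Mrps18a in the large subunit. Mrps18a was the most abundant in counts, with 45.1, 46.9 and 70.1 scaled CPM in kidney disease and 36.0, 49.6 and 56.2 in wild type (log2 fold change 0.04, SE 0.10). Mrps18b had 8.98, 10.4 and 12.99 in kidney disease and 8.32, 10.9 and 12.1 in wild type (0.01, SE 0.09). Mrps18c had 5.28, 6.07 and 11.3 in kidney disease and 4.88, 6.26 and 8.15 in wild type (0.11, SE 0.15). None of the 3 differed between the groups beyond its error, and the interval of Mrps18c, -0.21 to 0.43, was among the widest of the 77.

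Small-subunit genes in which human mutations cause mitochondrial disease showed the same picture. Mrps22 had 10.8, 14.6 and 21.1 scaled CPM in kidney disease and 9.77, 15.7 and 17.5 in wild type (log2 fold change 0.01, SE 0.12). Mrps14 had 20.8, 23.8 and 35.4 in kidney disease and 16.5, 24.2 and 27.2 in wild type (0.09, SE 0.11). Mrps28 had 28.1, 30.9 and 43.4 in kidney disease and 21.7, 31.9 and 36.2 in wild type (0.06, SE 0.11). In all 3 genes the kidney disease median lay just below the wild-type median although the fold change was positive, and the highest library belonged to kidney disease and the lowest to wild type. Mrpl41 (0.07, SE 0.13) and Mrps30 (-0.01, SE 0.09), both large-subunit proteins that have been linked to apoptosis outside the ribosome, also stayed within their error.

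The genes moved together from library to library, and 2 libraries stood at the ends. Each heart gave 1 library, so differences between hearts and between preparations cannot be told apart. Measured as the deviation of log2(scaled CPM + 0.1) from each gene's mean over the 15 libraries, the median of the 77 genes was 0.03, -0.02, 0.09, -0.14, -0.12, 0.42 and -0.16 in kidney disease 1 to 7, and 0.17, -0.05, -0.04, 0.06, 0.14, -0.12, -0.40 and 0.14 in wild type 1 to 8. Kidney disease 6 was thus far above the other libraries and wild type 7 far below them. Kidney disease 6 was the highest of all 15 libraries in 70 of the 77 genes, wild type 7 the lowest in 74, and both held in 68. All 77 genes lay above their mean in kidney disease 6, and 0 in wild type 7. Their summed level was 2659, 2937 and 4108 scaled CPM (lowest, median and highest) in kidney disease and 2243, 3014 and 3403 in wild type. Without those 2 libraries the sums ran from 2659 to 3171 in kidney disease, against 2774 to 3403 in wild type.

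**Figure D2:**
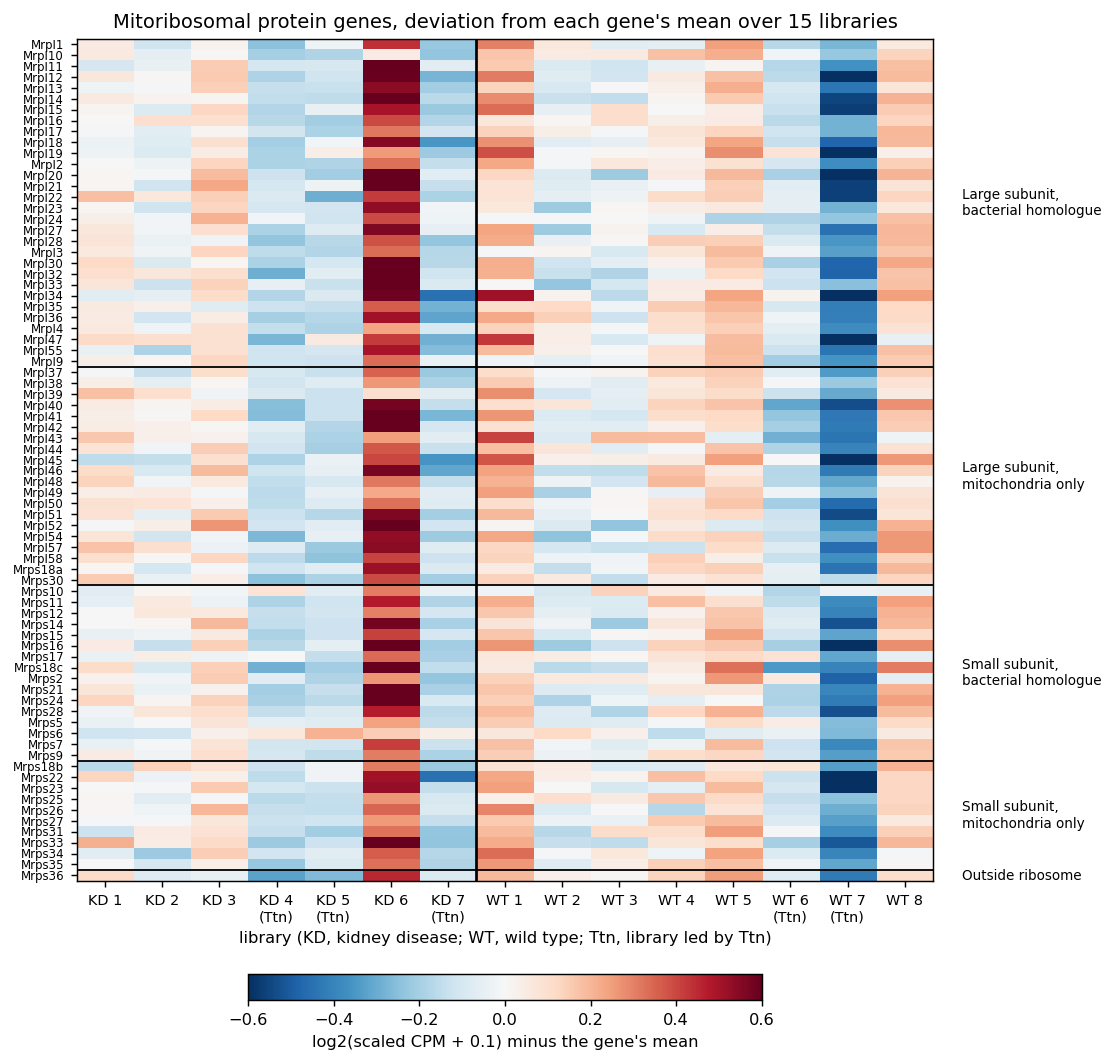
Deviation of log2(scaled CPM + 0.1) from the gene's mean over all 15 libraries (colour) for each of the 77 tested genes (rows, grouped by place in the ribosome) in each library (columns, 7 kidney disease libraries left of 8 wild-type libraries). Values beyond the ends of the colour bar take its end colour, and the columns of kidney disease 6 and wild type 7 are high and low over nearly all rows.

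The level of a mitoribosomal gene varied between libraries mostly along with that of the others. Its SD between animals, taken within each group and pooled, had a median of 0.215 on the log2 scale. The range was 0.113 (Mrps10) to 0.355 (Mrpl34). Over 10052 protein-coding genes with a mean above 5 scaled CPM the median was 0.142. Without kidney disease 6 and wild type 7 the medians were 0.131 and 0.117. Once the median of the 77 genes in each library was taken off, the pooled SD of a gene had a median of 0.088 and a range of 0.041 to 0.188. Relative to that median Mrpl10 differed by -0.17 on the log2 scale, with values of -0.37 to 0.02 in kidney disease against -0.01 to 0.17 in wild type. The few genes that did not follow the common pattern at both ends were Mrpl10, Mrpl19, Mrpl39, Mrpl43, Mrpl47, Mrpl49, Mrps6, Mrps10 and Mrps30.

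The sign of the small shift depended on those 2 libraries. Without kidney disease 6 the median log2 fold change of the 77 genes was -0.05, and without wild type 7 it was -0.02. Without both it was -0.10, with 4 positive and 73 negative values, against a median of 0.01 over all genes. In that fit 0 of the 77 passed (2.32% of all genes did), 19 passed at an unadjusted p under 0.05 (15.2% of all genes did), and the smallest adjusted p was 0.0632 for Mrpl45 at -0.27 (edgeR), whose adjusted p ran from 0.0632 to 0.92 over the 30 alternatives. This omission was chosen after seeing the data. Over the 15 fits that left out 1 library each, the median of the 77 genes ran from -0.05 to 0.06, while the SD of their median between animals of a group was 0.20 among kidney disease and 0.19 among wild-type animals.

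**Figure D3:**
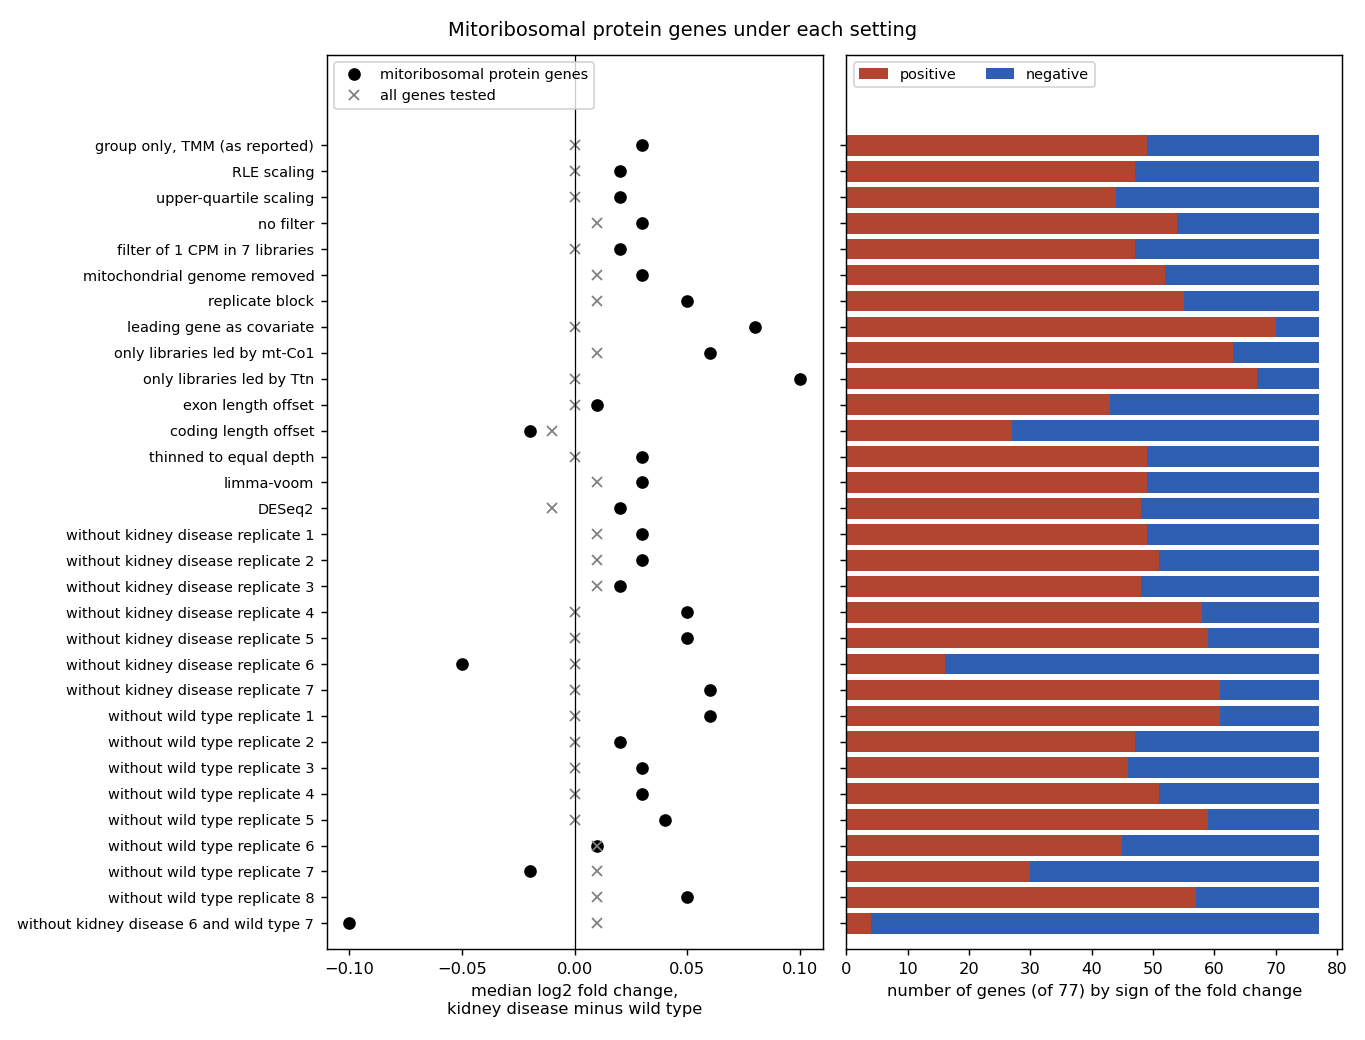
Left, median log2 fold change (kidney disease minus wild type) of the 77 mitoribosomal protein genes (dots) and of all genes tested (crosses) under each setting named on the y axis. Right, number of the 77 genes with a positive and with a negative fold change; the median runs from -0.10 without kidney disease 6 and wild type 7 to 0.10 in the libraries led by Ttn.

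A length trend over all genes ran through the same 2 libraries. Protein-coding genes with at most 500 coding bases (798 genes above 5 scaled CPM) had a median deviation of 0.43 in kidney disease 6 and of -0.31 in wild type 7, while the 3332 genes above 2000 coding bases had -0.13 and 0.03. Mitoribosomal genes are short: 26 have at most 500 coding bases, 40 have 500 to 1000 and 11 have 1000 to 2000. Within each class their medians lay further out than those of all genes of the class, which include them. In kidney disease 6 and wild type 7 the mitoribosomal medians were 0.57 and -0.43, 0.40 and -0.39, and 0.33 and -0.32. Those of all genes of the class were 0.43 and -0.31, 0.21 and -0.20, and 0.05 and -0.10. These 2 libraries were singled out by the level of the mitoribosomal genes, so a greater distance in them is in part fixed by that choice. With an offset fitted to coding length, the median deviation of the mitoribosomal genes came to 0.21 in kidney disease 6, against -0.22 in wild type 7. With that offset, an alternative chosen after seeing the data, the median log2 fold change was -0.02, and Mrpl10 was the 1 gene of the 77 that passed (1.98% of all genes did), with a log2 fold change of -0.19 (edgeR, adjusted p = 0.0479). Its adjusted p ran from 0.0479 to 0.825 over the 30 alternatives, and its fold change from -0.21 to -0.09 (edgeR, DESeq2 and limma-voom).

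Other short nuclear genes in the same 2 libraries went the same way. Cytoplasmic ribosomal protein genes (79) had a median deviation of 0.65 in kidney disease 6 and -0.42 in wild type 7, and nuclear complex I genes (37) had 0.57 and -0.45. The 13 protein genes of the mitochondrial genome had medians of 0.06 in kidney disease 6 and -0.16 in wild type 7, the same signs at smaller size. In that median neither library was the extreme of its group. Single genes differed from it: mt-Nd4 (7005 scaled CPM) and mt-Nd5 (10640) had their lowest value of all libraries in kidney disease 6. There mt-Nd2 (6635) lay above the median of its group (5931). Kidney disease 6 also had the highest macrophage marker sum (598.4 scaled CPM) and the lowest atrial and erythroid sums (31.7 and 310.2) of its group, and wild type 7 the lowest macrophage sum (309.1) and the highest atrial sum (1401) of its group, while both had nearly the same ventricular sum (66544.5 and 66926.8). Their part in the result was not tested.

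**Figure D4:**
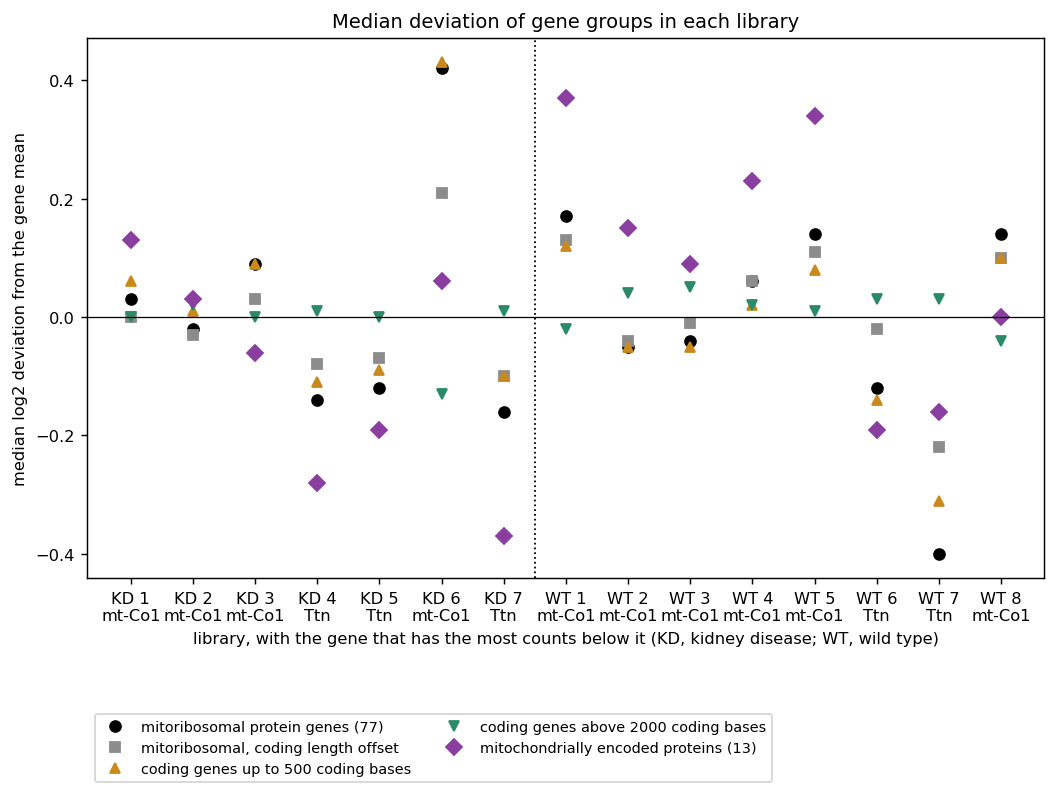
Median log2 deviation from the gene mean (y axis) in each library (x axis, kidney disease left, wild type right, with the gene that led the library). Markers show the 77 mitoribosomal protein genes, the same genes with an offset for coding length, protein-coding genes above 5 scaled CPM with at most 500 and with more than 2000 coding bases, and the 13 mitochondrially encoded proteins; in kidney disease 6 the mitoribosomal genes and the shortest genes stand at 0.42 and 0.43, above all other libraries.

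The libraries also fell into 2 kinds by their most abundant transcript. Ttn, the gene of the giant sarcomere protein titin, had the most counts in 3 kidney disease libraries (4, 5 and 7) and in 2 of wild type (6 and 7). In the other 10 it was mt-Co1, a mitochondrially encoded subunit of cytochrome c oxidase. Mitoribosomal genes were low in each of the libraries led by Ttn, where 2, 3 and 1 of the 77 genes lay above their mean in kidney disease 4, 5 and 7, and 7 and 0 in wild type 6 and 7. Within the libraries led by Ttn their median log2 fold change was 0.10, with 67 positive, and within those led by mt-Co1 it was 0.06, with 63 positive. The first subset holds wild type 7 and the second kidney disease 6. Without wild type 7, libraries led by Ttn had median deviations of -0.14, -0.12 and -0.16 in kidney disease, against -0.12 in wild type 6. Without kidney disease 6, those led by mt-Co1 had -0.02 to 0.09 in kidney disease, against -0.05 to 0.17 in wild type. The fit with the leading gene as a covariate holds both libraries. No mitoribosomal gene passed in the libraries led by Ttn (0.0134% of all genes did), in those led by mt-Co1 (0.416%) or with the leading gene as a covariate (2.52%), a fit with a median of 0.08 and 70 positive values. At an unadjusted p under 0.05, 2 of the 77 passed in the libraries led by Ttn (7.92% of all genes), 1 in those led by mt-Co1 (13.5%) and 7 with the covariate (18.1%), all by edgeR.

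The promoters of the genes were searched for motifs that are common in nuclear genes of mitochondrial proteins. RefSeq windows (GRCm38.p6, from 250 bases before to 50 after the start) matched 69 of the 78 genes by symbol, with 75 windows. Both strands were searched for the NRF1 motif (a GC-rich motif with 1 free base), CCGGAAG (ETS factors such as GABP), AAGATGGCG (YY1) and CCAAT (the box bound by NF-Y), none of which contains another. NRF1 letters were in 17.3% of the 75 windows against 4.6% of all 32851 windows, ETS letters in 34.7% against 8.86%, YY1 letters in 10.7% against 1.4%, and CCAAT in 40.0% against 37.41%. At least 1 of the first 3 was in 41 windows, or 54.7%, against 13.55% of all. These are counts of letters in windows and do not show that a factor binds. The background is all windows and not those of genes expressed in the heart. Whether the motifs have a part in the shared movement of the genes was not tested.

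The 250 bases before the RefSeq start are shown for 4 genes that differ in these motifs, 5′ to 3′ on the gene's own strand, with motif letters in capitals. Mrpl12 (chr11:120484387-120484636, plus strand) has NRF1 letters starting 81 bases before the start. Mrpl10 (chr11:97041332-97041581, plus strand), the gene with the smallest p, has none of the 4 motifs. Mrps12 (chr7:28741822-28742071, minus strand) has 4 CCAAT boxes, and its whole window also holds ETS letters that reach past the start and are not shown. Mrps18a (chr17:46110754-46111003, plus strand) has ETS letters 26 bases before the start and CCAAT further upstream, and its whole window also holds YY1 letters that reach past the start and are not shown.
Mrpl12: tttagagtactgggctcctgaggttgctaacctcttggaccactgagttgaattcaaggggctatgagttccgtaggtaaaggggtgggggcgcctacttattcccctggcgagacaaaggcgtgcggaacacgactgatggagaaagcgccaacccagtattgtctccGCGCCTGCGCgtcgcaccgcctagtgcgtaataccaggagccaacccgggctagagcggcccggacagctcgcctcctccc
Mrpl10: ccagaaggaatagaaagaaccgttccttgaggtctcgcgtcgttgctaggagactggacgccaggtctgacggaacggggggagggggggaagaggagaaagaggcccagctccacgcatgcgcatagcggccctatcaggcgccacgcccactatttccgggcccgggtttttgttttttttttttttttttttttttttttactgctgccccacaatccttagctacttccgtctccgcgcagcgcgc
Mrps12: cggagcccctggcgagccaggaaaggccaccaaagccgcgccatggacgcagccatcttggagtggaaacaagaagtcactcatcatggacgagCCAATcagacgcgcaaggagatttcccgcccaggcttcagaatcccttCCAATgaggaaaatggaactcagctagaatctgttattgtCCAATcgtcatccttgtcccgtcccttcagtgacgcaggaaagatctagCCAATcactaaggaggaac
Mrps18a: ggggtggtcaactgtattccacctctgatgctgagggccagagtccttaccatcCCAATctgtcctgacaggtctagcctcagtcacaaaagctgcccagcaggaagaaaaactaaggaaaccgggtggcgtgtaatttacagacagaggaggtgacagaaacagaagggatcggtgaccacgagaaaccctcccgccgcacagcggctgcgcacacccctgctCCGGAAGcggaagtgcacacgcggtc

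Some mitoribosomal genes lie head to head with a neighbour read the other way. A partner with its start within 1000 bases upstream was found for 18 of the 78 genes, or 23.1%. The same held for 1491 of 22028 protein-coding genes of the annotation, or 6.77%. Pairs in which either gene starts inside the other were not counted. An example is Mrpl46 and Mrps11, which lie on opposite strands and share exon bases. The partners of 2 of the 18 genes also serve mitochondrial gene expression: Mrps12 faces Sars2, the mitochondrial seryl-tRNA synthetase, and Mrps27 faces Ptcd2, which acts in mitochondrial RNA processing. Mrpl49 faces Fau, whose product is a cytoplasmic ribosomal protein fused to a ubiquitin-like domain. Sars2 had a log2 fold change of -0.06 (SE 0.09) beside 0.02 for Mrps12, and Ptcd2 had 0.10 (SE 0.09) beside -0.03 for Mrps27. Fau had 0.36 (SE 0.12; edgeR, adjusted p = 0.17) beside 0.01 for Mrpl49. None of these partners passed the test. The 78 genes are spread over 17 chromosomes, with 11 of them, the most, on chromosome 11.

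Although the proteins are needed in nearly equal numbers per ribosome, their transcripts differed widely in level per length. Mean FPKM (CPM per kilobase of exon) over the 15 libraries had a median of 12.6 over the 77 genes and ran from 1.95 to 95.6, a 49.0-fold range. Mrpl12, which is present in several copies per ribosome, was highest, with a mean of 100.4 FPKM in 7 kidney disease hearts and 91.4 ± 14.2 in 8 wild-type hearts (SD). Mrpl34 followed with 72.9 ± 16.2 in kidney disease against 71.6 ± 15.01 in wild type, and Mrps21 with 74.6 ± 17.1 in kidney disease against 67.7 ± 7.08 in wild type. These 2 neighbours in the order did not differ beyond their spread. At the other end, Mrps10 had 2.04 ± 0.2004 FPKM in kidney disease against 1.87 ± 0.115 in wild type, and Mrps30 had 2.93 ± 0.42 in kidney disease against 2.84 ± 0.185 in wild type. Mrpl33 had 3.37 ± 0.673 FPKM in kidney disease against 2.93 ± 0.268 in wild type.

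**Figure D5:**
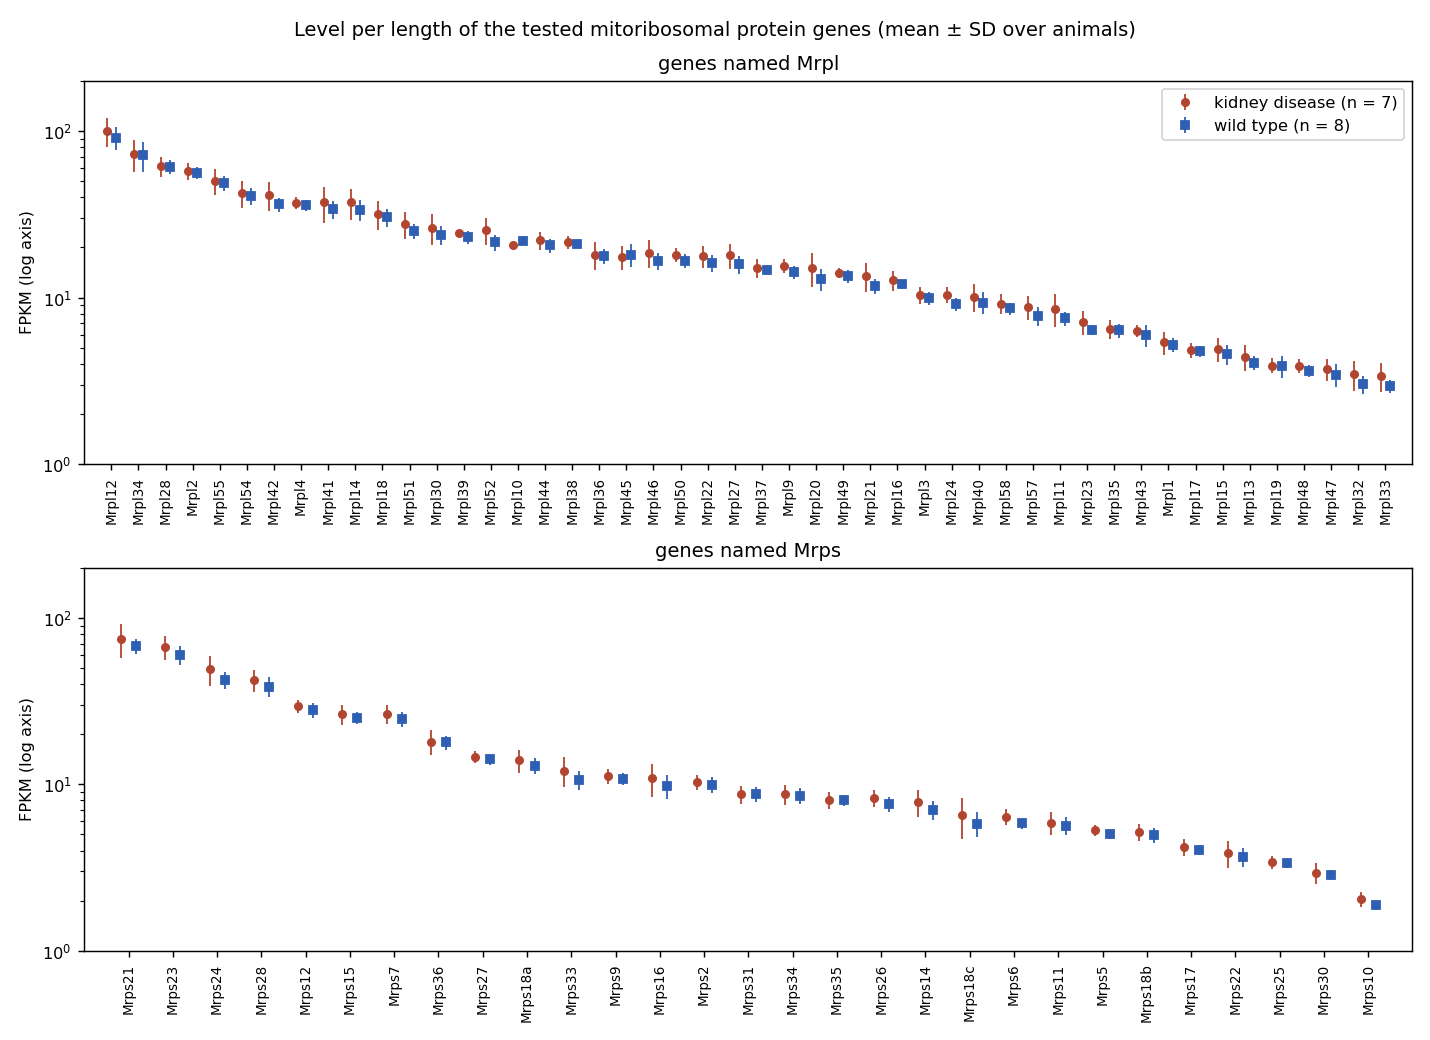
FPKM (y axis, log scale) of the 77 tested mitoribosomal protein genes, Mrpl above and Mrps below, sorted by mean level. Points are means and bars SDs over 7 kidney disease (circles) and 8 wild-type (squares) animals; levels run from 95.6 for Mrpl12 to 1.95 for Mrps10 over both groups, and the bars of the groups overlap for nearly every gene.

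The exon length that the values are divided by also differs between the genes. The 10 genes with the highest FPKM have 607 to 1560 annotated exon bases (median 1098) and the 10 with the lowest have 3991 to 8152 (median 6533), while their coding lengths are alike, with medians of 516 and 618 bases. Mrps10, the lowest by FPKM, has 8079 exon bases for 603 coding bases. Per kilobase of coding sequence it ranked 65 of the 77, at 26.2 scaled CPM, and Mrps18b was lowest, at 13.9. Mrpl12 stayed among the highest, at 244.1, behind Mrpl42 (333.9) and Mrpl51 (278.6). The order of levels thus differs between exon and coding length. By place, the median FPKM was 13.2 for large-subunit genes with a bacterial homologue, 17.4 for those of mitochondria only, 10.2 for small-subunit genes with a bacterial homologue and 8.35 for those of mitochondria only.

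Mrpl53 (chromosome 6, 83109040 to 83109939) had 0 counts in all 15 libraries, although it encodes a large-subunit protein. A count of 0 allows at most 0.0615 CPM in the smallest library, taking 3 counts as the limit, for counting error only. Exons of other genes cover 88.0% of its exon bases, those of Gm42688 on the same strand (6 to 30 counts per library) and of Ccdc142os on the other strand (11 to 38 counts). How the authors counted reads that fall in several genes is not given in the sources used here, and 0 is the count listed and not a measure of its expression. Of all 78 genes, 32 share exon bases with another gene and 10 share over 20%, among them Mrps34 (77.8%), Mrps25 (69.8%, with Nr2c2) and Mrpl43 (33.4%, with Twnk, the mitochondrial DNA helicase). On the same strand the shares were 36.97% for Mrps34 and 0.0% for Mrps25 and Mrpl43. The values of these genes are uncertain to an extent that depends on the strand and counting options, which are not known here. The pseudogenes Mrpl23-ps1 and Mrpl48-ps had 80 to 172 and 38 to 86 counts, and the 3 pseudogenes of Mrps36 between 0 and 110.

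The rest of the mitochondrial translation system was read from the same fit. Of 111 further genes in 7 lists, 108 were tested, 0 passed as higher and 1 as lower, and 30 fold changes were positive and 78 negative (median -0.06). At an unadjusted p under 0.05, 16 of the 108 passed, against 12.4% of all genes. Mitoribosomal proteins named otherwise, Dap3, Ptcd3, Chchd1, Aurkaip1 and Gadd45gip1, had a median of 0.00, and 0 of the 5 passed. Ptcd3 had 90.5 ± 8.78 scaled CPM in kidney disease (SD, n = 7) and 97.95 ± 10.97 in wild type (SD, n = 8), a log2 fold change of -0.11 (SE 0.08). All 5 fold changes lay within the range of the genes that carry the Mrpl and Mrps names.

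Among 28 assembly and ribosomal RNA modification genes 0 passed (median -0.04). Mpv17l2, a membrane protein that works in assembly, had 10.6, 11.99 and 14.1 scaled CPM (lowest, median, highest) in kidney disease and 8.92, 10.2 and 11.2 in wild type, a log2 fold change of 0.25 (SE 0.07; edgeR, adjusted p = 0.11). It passed with the leading gene as a covariate (0.27; edgeR, adjusted p = 0.0373), and its adjusted p ran from 0.0373 to 0.714 over the 30 alternatives. Trub2, a pseudouridine synthase, had -0.15 (SE 0.06), and Rpusd4, an enzyme of the same kind that modifies the large ribosomal RNA, had -0.16 (SE 0.07).

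Among 17 tested translation factors 0 passed (median -0.04). Gfm2, which recycles ribosomes, had 54.8, 59.6 and 65.7 scaled CPM in kidney disease and 56.0, 67.1 and 74.3 in wild type (log2 fold change -0.17, SE 0.06; edgeR, adjusted p = 0.24). Gfm1, which drives translocation, and Lrpprc, which stabilises mitochondrial messenger RNA, had -0.11 (SE 0.07) and -0.10 (SE 0.06). Among 22 aminoacyl-tRNA synthetase and amidotransferase genes 0 passed (median -0.06), and 17 of the 22 values were negative. Vars2, which charges the valine tRNA, had 28.2, 31.5 and 32.3 in kidney disease and 31.4, 35.7 and 37.0 in wild type (-0.17, SE 0.05; edgeR, adjusted p = 0.10), and its ranges overlapped only at their ends. Gatb (-0.21, SE 0.07) and Hars2 (-0.16, SE 0.06) were also negative. Without kidney disease 6 and wild type 7, Vars2 (-0.17), Aars2 (-0.22), Gatb (-0.27) and Gfm2 (-0.21) each passed, with adjusted p-values of 0.0161 to 0.0494 (edgeR). That omission was chosen after seeing the data, and 2.32% of all genes passed in it. Over the 30 alternatives the adjusted p of Vars2 ran from 0.0312 to 0.784, of Aars2 from 0.0161 to 0.855, of Gatb from 0.0442 to 0.703 and of Gfm2 from 0.0494 to 0.841.

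Among 21 tested genes of mitochondrial transcription and RNA processing 0 passed (median -0.03). Polrmt, the mitochondrial RNA polymerase, had 48.0 ± 2.33 scaled CPM in kidney disease and 52.3 ± 3.52 in wild type (log2 fold change -0.12, SE 0.05). Ptcd1 had 0.10 (SE 0.06) and Elac2, which trims the ends of mitochondrial tRNAs, -0.08 (SE 0.05).

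Of the templates that the mitoribosome reads, 1 of 13 passed as lower in kidney disease, against 1.28% of all genes tested in either direction. All 13 mitochondrially encoded protein genes had negative fold changes, with a median of -0.19, and mt-Nd4, a subunit of complex I, fell. It had 7005, 7381 and 8838 scaled CPM (lowest, median, highest) in kidney disease and 8313, 9735 and 10800 in wild type, and the groups overlapped at their ends. Its log2 fold change was -0.32 (SE 0.08; edgeR, adjusted p = 0.0437), but the call was lost in 11 of 15 fits that left out 1 library each (it held without kidney disease 1 and without wild type 6, 7 or 8), without a filter, under the replicate block and in either subset by leading gene. mt-Nd5 had -0.35 (SE 0.10; edgeR, adjusted p = 0.11) and mt-Nd2 -0.32 (SE 0.11; edgeR, adjusted p = 0.17). mt-Nd5 passed with DESeq2 (-0.35, adjusted p = 0.0176) and under the replicate block (-0.40; edgeR, adjusted p = 0.0397). It also passed without wild type 8 (-0.39; edgeR, adjusted p = 0.0479), but not in the other 14 fits that left out 1 library. The mitochondrial genome as a whole held 10.55% to 12.78% of counts in kidney disease, against 11.66% to 14.36% in wild type. It was lowest in the libraries led by Ttn in each group. This is in part built in, since mt-Co1, which leads the other libraries, belongs to the mitochondrial genome. The mitochondrial ribosomal RNAs mt-Rnr1 and mt-Rnr2 had -0.38 (SE 0.34) and -0.22 (SE 0.35), but the library kit removes ribosomal RNA, so their counts are what was left after removal. Whether these templates and the mitoribosomal protein genes differ in response was not tested.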

How the data were processed

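RNA of left ventricle from 7 kidney disease and 8 wild-type mice was sequenced after removal of ribosomal RNA (KAPA RiboErase, per the labels' protocols). The submitters' processing notes name bcl2fastq, the aligner STAR (2.7.9a), the Subread package with its counter featureCounts (2.0.3), and the build GRCm38. Strand and counting options were not given in the sources used here. For each of the 15 libraries the authors deposited 1 table with a raw count per gene. Its CPM column is the authors' count relative to the sum of the library. Its FPKM column is the authors' CPM divided by exon length in kilobases. Recomputing both from the counts gave deviations of at most 1.4e-13 of the value. FPKM carries no TMM factor.

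Gene names, biotypes and coordinates were taken from GENCODE M21 (GRCm38), which held 55227 of 55487 identifiers. Counts were fitted with edgeR 4.0.16 in R 4.3.3, after filterByExpr (minimum count 10) and TMM scaling, and groups were compared by the quasi-likelihood test without covariates, with Benjamini-Hochberg adjustment over 20718 genes and a threshold of 0.05. Alternatives used DESeq2 1.42.0, limma 3.58.1 (voom), other scalings and filters, offsets for exon or coding length, thinning to equal depth, the replicate block, the leading gene, and omission of libraries; the coding length offset and the omission of kidney disease 6 together with wild type 7 were added after the data were seen. The procedure was tested on simulated data. Within groups, 49 pairs of libraries all differed beyond sampling noise (chi-square per degree of freedom 8.44 or more). The design text calls the samples biological replicates.

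Library totals of 48748379 counts or more leave the spread between animals as the main error. The genes and lists were chosen with earlier results of these data known. The genes named were the 6 with the smallest p in each direction, the 3 highest and 3 lowest by FPKM, 16 with a set role and up to 3 per other list; others named were picked after their values were seen. Of the listed symbols, Mtrfr, Mtres1 and Prorp did not match and were not analysed.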

Additional observations from a re-analysis of the deposited data

Results flagged for a closer look

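Of 62 sets of values searched (29 named genes, the summed level and the ratio of Mrps to Mrpl sums, in 2 groups), 15 held a library far from the rest of its group, where chance gives about 3.1, and these sets are not independent, since the genes move together. In 13 it was kidney disease 6 as the highest of its group. In scaled CPM, with the next library's value after it, this was the case for Mrpl11 at 41.19 (28.43), Mrpl12 at 218.4 (161.3), Mrpl33 at 35.45 (25.03), Mrpl41 at 50.76 (33.76) and Mrps10 at 19.48 (16.64). It was likewise the case for Mrps12 at 36.58 (31.03), Mrps18a at 70.14 (49.38), Mrps18c at 11.26 (7.147), Mrps21 at 83.41 (54.52), Mrps24 at 104.0 (72.67), Mrps25 at 26.69 (22.39) and Mrps28 at 43.37 (33.62). The summed level of all mitoribosomal protein genes was 4108 in kidney disease 6 and 3171 in the next library. In the other 2, wild type 7 was the lowest of its group, for Mrpl21 at 16.87 (next 23.72) and Mrpl45 at 29.51 (next 45.86). In the remaining named genes the gap to the next library was smaller relative to the range of the group.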

How the results depend on the processing

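Of 30 alternatives, 29 called 0 mitoribosomal protein genes and the coding length offset called 1 (Mrpl10). The 29 named genes gave 870 values under these alternatives, of which 67, in 21 genes, had the other sign from the reported value, all without a call in either fit. The count of all genes called moved to 640 with DESeq2, 523 with the leading gene as a covariate, 411 with the coding length offset and 480 without kidney disease 6 and wild type 7. It moved to 86 in the libraries led by mt-Co1 and to 3 in those led by Ttn, where fewer animals were tested, and ran from 97 (without wild type 5) to 388 (without wild type 7) when 1 library was left out. For these counts the cause was not tested. Of the other mitochondrial translation genes, where 1 was called, the count was 3 with DESeq2, 2 with the leading gene, 5 without kidney disease 6 and wild type 7, and 0 without the filter, in the libraries led by mt-Co1 and in those led by Ttn. It was also 0 once genes of the mitochondrial genome were removed, since the 1 gene called is one of them, and ran from 0 to 3 when 1 library was left out.

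The labels number both groups, and deviations of same-numbered libraries from their group means correlated by 0.11, 0.07, 0.17, -0.11, -0.21, -0.11 and 0.44 for numbers 1 to 7. These values do not show that the numbers pair the animals. They cannot exclude it either, since a pairing may leave little trace in the counts. Libraries 1 and 7 had their best partner in their own number and the other 5 did not. A replicate block over numbers 1 to 7, which leaves out wild type 8, called 116 genes and 0 mitoribosomal genes, with a median of 0.05.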
